A study of Mus musculus with 3 samples.

Results

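Fc receptors bind the constant part of antibodies and tie antibody-coated particles to the cell that meets them. In macrophages the activating Fc gamma receptors sit beside a shared signalling adaptor, the FcR gamma chain, whose tyrosine motif recruits the kinase Syk and starts engulfment, and an inhibitory receptor restrains them. The neonatal Fc receptor works differently: it holds IgG and albumin in acid endosomes and returns them to the cell surface. The genes considered were the activating receptor genes Fcgr1, Fcgr3 and Fcgr4, the inhibitory receptor gene Fcgr2b, the adaptor gene Fcer1g and the neonatal receptor gene Fcgrt. They were chosen by symbol. Of these 6, 4 were analysed among 20574 gene symbols in the series: Fcgr1, Fcgr4, Fcer1g and Fcgrt. Fcgr2b and Fcgr3 were not analysed here, so no balance of activating against inhibitory receptors is given.

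The RNA came from primary mouse peritoneal macrophages labelled WT and cultured in DMEM, with 1 library per condition. One culture was kept for 5 h with apoptotic cells at 5 per macrophage and rinsed of those not engulfed, one was treated for 5 h with the bacterial cell-wall component LPS at 100 ng/ml, and one was untreated, with no time given. The labels do not give the strain, sex or age of the mice, how many were pooled or the source of the apoptotic cells, and the series title concerns how efferocytosis, the uptake of dying cells, turns macrophages towards repair. With no replicates there is no test and no p-value: each difference is between libraries, and treatment cannot be told apart from time or handling where the untreated library is the reference. Values are FPKM, fragments counted relative to transcript length and to the size of the library, so genes may be set side by side. They summed to 197222 with apoptotic cells, 200224 with LPS and 199881 untreated. A listed 0 can be a failed estimate, so it is given as listed and forms no ratio.

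The 3 receptor genes with a value in every library, Fcgr4, Fcgr1 and Fcgrt, all stood highest with apoptotic cells, next with LPS and lowest untreated. The adaptor gene Fcer1g ran the other way as listed, with a high value in the untreated library and 0 in both treated libraries. The members were chosen with their values in these libraries known, so these differences are descriptions. Among all 2891 genes that were above 0 in every library and averaged 1 FPKM or more, 467 (16.2%) had the same order of levels as the receptor genes. In bulk RNA, a different number of expressing cells and a different amount of RNA per cell cannot be told apart.

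**Figure D1:**
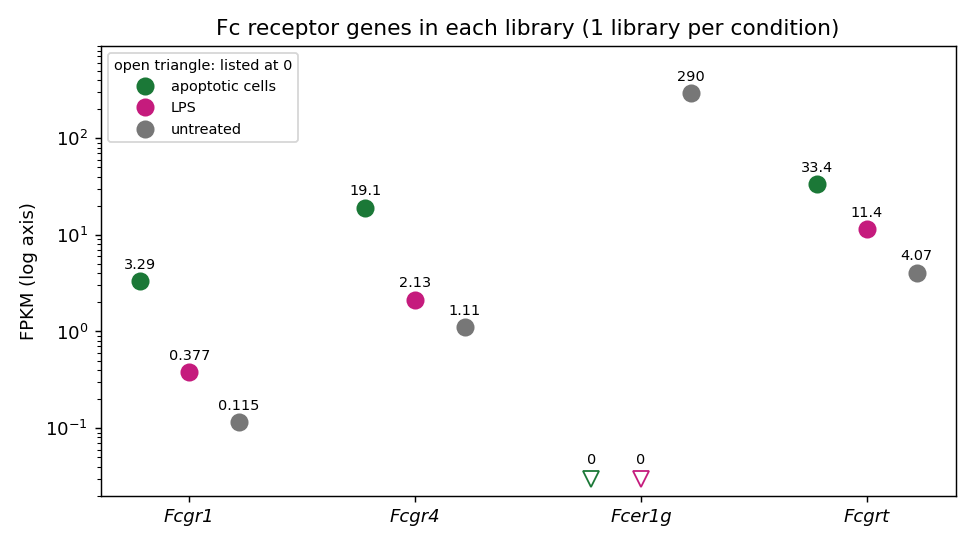
FPKM on a log axis of the 4 Fc receptor genes with apoptotic cells, with LPS and untreated, 1 point per library. Fcgr1, Fcgr4 and Fcgrt step down in that order, while Fcer1g has 290.2 FPKM untreated and is listed at 0 (open triangles, drawn at an arbitrary low position) in the other libraries.

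Fcgr4 encodes an activating receptor of mouse myeloid cells for IgG. It stood at 19.1 FPKM with apoptotic cells, at 2.13 FPKM with LPS and at 1.11 FPKM untreated. The value with apoptotic cells lay far above the other pair, which were close to each other. Steps between the smallest values in each library give an approximate number of reads behind a value: about 61, 6 and 3 reads for Fcgr4 in the same order. The level with apoptotic cells was 17.3 times that of untreated macrophages (95% counting interval 6.53 to 99.7) and 8.98 times that with LPS (3.90 to 25.4). The level with LPS was 1.92 times the untreated one, with an interval of 0.476 to 13.8 that includes no difference, so those neighbours in the order were not distinguishable at this depth. These intervals rest on the estimated reads, cover counting error only and compare libraries, not conditions. Fcgr4 lies on mm10 chromosome 1 from 171018920 to 171029761 on the plus strand, with 5 exons, and a small nuclear RNA model, Gm26110, lies inside it on the same strand.

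Fcgr1 encodes the receptor that binds single IgG molecules with high affinity. It stood at 3.29 FPKM with apoptotic cells, at 0.377 FPKM with LPS and at 0.115 FPKM untreated. Only the value with apoptotic cells rests on more than a few reads: about 25, against 3 with LPS and 1 untreated. The ratio of apoptotic cells to untreated was 28.6 with a counting interval of 4.03 to 1009.9, so its size is hardly fixed, and the ratio of apoptotic cells to LPS was 8.72 (2.39 to 40.6). LPS against untreated was 3.28 (0.252 to 165), not distinguishable at this depth. In the untreated library 6.24% of the genes above 0 lay below Fcgr1, against 46.4% with apoptotic cells and 15.9% with LPS. The gene lies on chromosome 3 from 96282909 to 96293969 on the minus strand, with 6 exons.

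Fcgrt encodes the heavy chain of the neonatal Fc receptor, which pairs with beta-2-microglobulin. It had the best-covered values, 33.4 FPKM with apoptotic cells, 11.4 with LPS and 4.07 untreated, or about 164, 51 and 20 reads. Each step of the order held against counting error. Apoptotic cells stood 8.20 times above untreated (5.06 to 13.6) and 2.92 times above LPS (2.14 to 4.13), and LPS stood 2.80 times above untreated (1.60 to 4.84). Fcgrt lies on chromosome 7 from 45092990 to 45103851 on the minus strand, with 7 exons in its longest coding transcript. The antisense gene Gm45669 overlaps the gene on the other strand, but its transcripts hold no run of 50 bases of that Fcgrt transcript. The other Fcgrt transcripts were not searched, and strandedness is not given in the sources used here.

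Fcer1g encodes the FcR gamma chain, the adaptor that mouse Fcgr1, Fcgr3 and Fcgr4 need at the cell surface. It was listed at 0 with apoptotic cells, at 0 with LPS and at 290.2 FPKM untreated, above 98.8% of the genes above 0 in that library. No ratio is given, because a 0 beside a value this large was common here: of 235 genes with at least 100 FPKM in the untreated library, 28.5% were listed at 0 with apoptotic cells, 26.8% with LPS and 14.0% in both. The sister adaptor gene Tyrobp, which encodes DAP12, was listed the same way, at 0, 0 and 413 FPKM. The receptor genes that rely on the adaptor were thus above 0 in the libraries in which the adaptor was listed at 0. Fcer1g lies on chromosome 1 from 171229572 to 171234365 on the minus strand.

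Reads shared between relatives are a known difficulty in this family, whose extracellular parts arose by duplication. No run of 50 bases in the longest coding transcripts of Fcgr1, Fcgr4, Fcer1g and Fcgrt occurs in a transcript of another gene in GENCODE M21, on either strand. Of such runs in Fcgr3, 12.8% occur in Fcgr2b. The values given here are therefore for genes whose transcripts hold no exact copy of that length, while the pair that shares sequence is the pair not analysed. The read length is not given in the sources used here.

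The promoters of the 3 genes that shared an order of levels are shown because they differ in the motifs they hold. Each is the RefSeq window (GRCm38.p6) from 250 bases before to 50 after the start, printed 5′ to 3′ on the gene's strand, with motif matches in capitals. The motifs searched on both strands were the interferon-gamma activated site TTCNNNGAA, the interferon-stimulated response element (GAAA, any 2 bases, GAAA), the PU.1 core GAGGAA, the AP-1 site TGANTCA and the C/EBP half-site pair TTGCNNAA. No 2 matches overlapped. The windows are chr3:96293920-96294219 (minus strand) for Fcgr1, chr1:171018676-171018975 (plus strand) for Fcgr4 and chr7:45103773-45104072 (minus strand) for Fcgrt.
Fcgr1: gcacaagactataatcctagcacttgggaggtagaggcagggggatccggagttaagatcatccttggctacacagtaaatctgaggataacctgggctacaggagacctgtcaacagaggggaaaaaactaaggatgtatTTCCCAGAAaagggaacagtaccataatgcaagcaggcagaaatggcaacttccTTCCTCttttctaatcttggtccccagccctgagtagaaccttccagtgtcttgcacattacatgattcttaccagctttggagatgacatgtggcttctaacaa
Fcgr4: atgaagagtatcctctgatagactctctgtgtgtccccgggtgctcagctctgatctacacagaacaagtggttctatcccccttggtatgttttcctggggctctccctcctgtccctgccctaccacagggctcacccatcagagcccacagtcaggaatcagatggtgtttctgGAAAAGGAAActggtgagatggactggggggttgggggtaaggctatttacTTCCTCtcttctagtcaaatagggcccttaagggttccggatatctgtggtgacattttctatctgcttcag
Fcgrt: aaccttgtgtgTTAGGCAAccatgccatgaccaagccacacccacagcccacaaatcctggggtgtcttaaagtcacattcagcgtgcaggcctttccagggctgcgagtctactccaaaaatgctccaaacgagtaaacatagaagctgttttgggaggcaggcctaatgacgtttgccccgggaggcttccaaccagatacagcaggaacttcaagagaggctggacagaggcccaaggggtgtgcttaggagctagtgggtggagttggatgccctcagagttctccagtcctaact

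Both activating receptor genes held a PU.1 core on the opposite strand, which begins 55 bases before the start in Fcgr1 and 22 bases before it in Fcgr4. PU.1 is the factor that sets up much of the myeloid gene programme. That core was in 28.3% of all 32851 promoter windows of this length, so it is common. Fcgr1 also held the interferon-gamma activated site, as TTCCCAGAA 109 bases before the start (in 8.30% of windows). Fcgr4 held the interferon-stimulated element, as GAAAAGGAAA 73 bases before the start (in 3.44%). Fcgrt held neither and had a C/EBP match as TTAGGCAA at 239 bases before the start (in 10.8%). None of the 3 windows held the AP-1 letters, which 7.81% of windows did, and the Fcer1g window held none of the 5 motifs. A match is a description of letters and shows no binding.

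Against all genes, the receptor genes lay towards the upper end of the ratios with apoptotic cells. Ratios are log2((FPKM + 1) / (FPKM + 1)), which understates differences of low genes, over genes above 0 in both libraries that averaged 1 FPKM or more across the 3. All 4 analysed members met the mean, Fcgr1 only through its value with apoptotic cells and Fcer1g only through its untreated value, so a large difference in those members is built into passing. For apoptotic cells against untreated, the log2 ratio was 3.26 for Fcgr4, the highest but 2 of 3369 genes (rank 3), 2.76 for Fcgrt (rank 26) and 1.94 for Fcgr1 (rank 106). All 3 members above 0 in both libraries were thus at least 2-fold higher, where 12.4% of all genes tested were at least 2-fold higher and 16.4% lower. Their median log2 ratio was 2.76, and that of all genes was -0.13. With median-of-ratios scaling, 538 genes were higher and 428 lower, against 418 and 554 as deposited, which turned the balance round, and that scaling moved the median of all genes by 0.18. The receptor genes kept ratios of 1.92 to 3.33 under it.

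Under LPS the receptor genes stood closer to the untreated library. The log2 ratio of LPS to untreated was 1.29 for Fcgrt (rank 205 of 3421), 0.57 for Fcgr4 and 0.30 for Fcgr1. Only Fcgrt, 1 of 3, was at least 2-fold higher and 0 were lower, where 8.51% of all genes tested were higher and 26.2% lower. The median of the 3 was 0.57 and that of all genes -0.40. Median-of-ratios scaling moved the median of all genes by 0.51 and turned 291 higher and 896 lower genes into 647 and 450. Under it Fcgrt had a ratio of 1.83, Fcgr4 of 0.95 and Fcgr1 of 0.43. With a pseudocount of 0.1 instead of 1, Fcgr1 also passed 2-fold, at 1.15, and with a pseudocount of 5 none did.

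Apoptotic cells against LPS is the comparison in which both libraries have the same stated time. The log2 ratio was 2.68 for Fcgr4 (rank 51 of 4599), 1.64 for Fcgr1 (rank 237) and 1.47 for Fcgrt (rank 307). All 3 were at least 2-fold higher with apoptotic cells, where 15.7% of all genes tested were higher and 5.54% lower. The median was 1.64, beside 0.32 over all genes. Median-of-ratios scaling moved the median of all genes by -0.33 and gave 419 higher and 443 lower genes, against 722 and 255 as deposited. The receptor genes stayed at 2.38, 1.48 and 1.09 in the order given. These comparisons share libraries, so they are not independent views of the same genes.

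**Figure D2:**
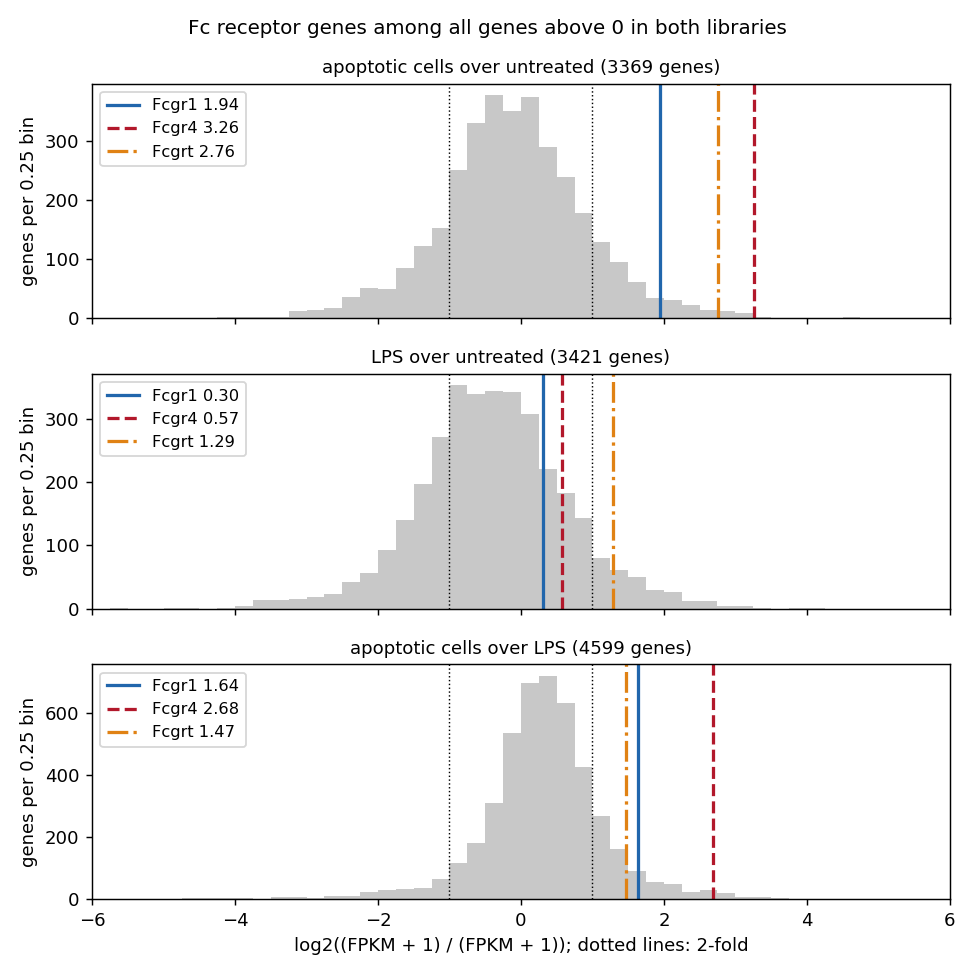
Number of genes by log2((FPKM + 1) / (FPKM + 1)) for apoptotic cells over untreated, LPS over untreated and apoptotic cells over LPS (grey bars, bins of 0.25), with Fcgr1, Fcgr4 and Fcgrt as vertical lines and 2-fold as dotted lines. All 3 genes lie beyond 2-fold in the panels with apoptotic cells on top, and Fcgrt alone does so in the LPS panel.

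As listed, the proportions among the receptor genes differed between libraries. Ratios between genes of one library do not depend on how libraries are scaled. Fcgrt stood at 1.75 times Fcgr4 with apoptotic cells, at 5.36 times with LPS and at 3.68 times untreated, so Fcgr4 came closest to Fcgrt with apoptotic cells. Fcgr4 stood at 5.81, 5.64 and 9.63 times Fcgr1 in the same order, where the untreated value rests on about 1 read of Fcgr1. Summed over these genes the level was 55.8 FPKM with apoptotic cells, 13.9 with LPS and 5.29 untreated. Fcgr4 made up 34.3% of that sum with apoptotic cells, 15.3% with LPS and 20.9% untreated, and Fcgrt made up 59.8%, 82.0% and 76.9%. The Fcgr4 values rest on about 61 reads with apoptotic cells, but only 6 with LPS and 3 untreated. No counting interval was formed for these proportions, so whether they differ beyond counting error was not tested.

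**Figure D3:**
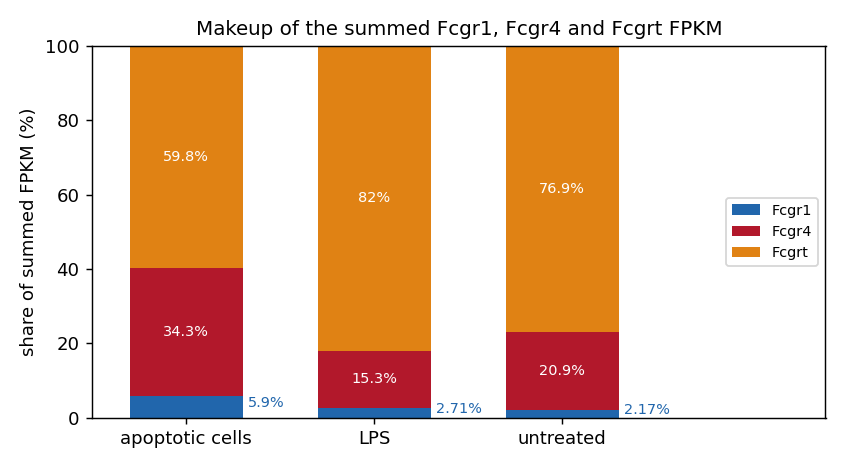
Share (%) of the summed FPKM of Fcgr1, Fcgr4 and Fcgrt held by each gene with apoptotic cells, with LPS and untreated, 1 library each. The Fcgr4 share is 34.3% with apoptotic cells, 15.3% with LPS and 20.9% untreated, from about 61, 6 and 3 reads of Fcgr4.

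The genes nearest to each receptor gene in their pair of log2 ratios to the untreated library were found among 2650 named genes above 0 in all 3 libraries. Fcgrt was nearest to Spp1, the gene for osteopontin (distance 0.040 on the log2 scale), then to Bcam, an adhesion receptor gene (0.11), and Pros1, whose product bridges dying cells to phagocytes (0.20). Spp1 stood at 446 FPKM with apoptotic cells, 154 with LPS and 63.6 untreated. Fcgr4 was nearest to Idh1, a cytosolic isocitrate dehydrogenase gene (0.32), the chemokine gene Cxcl14 (0.36) and the selenoprotein carrier gene Sepp1 (0.46). Fcgr1 was nearest to the mitochondrial carbonic anhydrase gene Car5b (0.054), Ppm1h (0.10) and Lrfn3 (0.13). That closeness leans on the pseudocount of 1, since Fcgr1 stood at 3.29 FPKM with apoptotic cells and only 0.115 untreated. In the same libraries Car5b stood at 4.12 and 0.379 FPKM, Ppm1h at 22.9 and 5.53, and Lrfn3 at 5.94 and 0.965. Each distance rests on 3 libraries and leaves out counting error. The Fcgr4 ratios rest on about 6 reads with LPS and 3 untreated. Even for Fcgrt, the ratio of apoptotic cells to untreated had a counting interval of 5.06 to 13.6, so the order of the neighbours is not fixed.

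The signalling genes downstream of activating Fc receptors went both ways. Of the 5 above 0 in all 3 libraries, Gab2, Rac1 and Vav3 had the order listed for the receptor genes. Plcg2 and Was, the gene for an actin regulator, did not. That order was found in 16.2% of all 2891 genes above 0 in every library. Its lower step, LPS above untreated, was not distinguishable at this depth for Fcgr4 and Fcgr1. Of 22 such genes listed, 17 were analysed and 7 were above 0 with apoptotic cells and untreated: 1 was at least 2-fold higher with apoptotic cells, 2 were lower and 4 were under 2-fold, around a median of -0.10 beside -0.13 for all genes, of which 12.4% were higher and 16.4% lower. Gab2, a docking adaptor gene, was higher at 29.8 against 10.2 FPKM (log2 ratio 1.45). Plcg2, the phospholipase gene that raises calcium, was lower at 20.9 against 68.1 FPKM (-1.66), and so was Vav1, an activator of Rac, at 18.1 against 45.8 FPKM (-1.29). Rac1, the GTPase gene of the engulfing membrane, stood at 192, 178 and 139 FPKM with apoptotic cells, with LPS and untreated.

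Between LPS and untreated, 5 of these signalling genes could be compared, and past 2-fold there were 0 higher and 1 lower, Plcg2 at 12.8 against 68.1 FPKM (-2.32). Their median was 0.36, beside -0.40 for all genes, of which 8.51% were higher and 26.2% lower. Between apoptotic cells and LPS, 8 could be compared, with 1 higher past 2-fold and 0 lower, around a median of 0.72 beside 0.32 for all genes, of which 15.7% were higher and 5.54% lower. The higher one was Elmo1, a partner of Rac activation, at 14.0 against 6.42 FPKM (1.01). The kinase genes were mostly listed at 0 somewhere. Syk had 30.9 FPKM in the library with apoptotic cells alone and Lyn 87.1 FPKM in the untreated library alone, each with a 0 elsewhere.

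Genes of the inhibitory arm gave almost no comparison. Of 14 listed, 8 were analysed. With apoptotic cells against untreated 1 could be compared, the adaptor gene Dok2, at 11.6 against 6.16 FPKM (0.81), and against LPS 1 as well, Ptpn6, the gene for the phosphatase SHP-1, at 34.6 against 19.0 FPKM (0.83). None could be compared between LPS and untreated. Of 13 genes for receptors that pair with the FcR gamma chain and for sister adaptors, 4 were analysed, and Hcst, the gene for the adaptor DAP10, was the one that could be compared. It stood at 62.0 FPKM with apoptotic cells, 24.8 with LPS and 14.8 untreated, an order found in 16.2% of all genes above 0 in every library. The log2 ratios were 1.99 to untreated and 1.29 to LPS for apoptotic cells, and 0.71 for LPS to untreated. B2m, the partner of Fcgrt, was not analysed here, and Alb was listed at 0 in every library.

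Other immunoglobulin-binding receptors are B-cell, mast-cell or epithelial genes for the most part. Of 12 listed, 10 were analysed. Against untreated, 2 could be compared for apoptotic cells: Fcrls, a scavenger-like Fc receptor relative of mouse macrophages, at 2.12 against 0.612 FPKM (0.95, under 2-fold), and Pigr, the epithelial transporter of IgA and IgM, at 0.0748 against 3.56 FPKM (-2.08). For LPS against untreated only Fcrls could be compared (-0.27). For apoptotic cells against LPS, 3 of 4 were higher past 2-fold and 0 lower, with a median of 1.59, where 15.7% of all genes were higher and 5.54% lower around a median of 0.32. They were Faim3, the IgM receptor gene, at 47.0 against 9.98 FPKM (2.13), Fcrla at 25.2 against 5.78 FPKM (1.95) and Fcrls (1.23). Faim3 and Fcrla are B-lineage genes and were listed at 0 untreated. Trim21, the antibody receptor of the cytosol, stood at 4.34 and 4.58 FPKM with apoptotic cells and LPS.

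Genes of the cytokine pathways and factors known to act on Fc receptor genes went both ways. Of 15 listed, 10 were analysed. Among 4 compared between apoptotic cells and untreated, 1 was at least 2-fold higher and 2 were lower (median -0.49), where 12.4% of all genes were higher and 16.4% lower (median -0.13). With a listed 0 taken as a value the median of this list turned to 1.36. Past 2-fold, the myeloid factor gene Cebpa stood at 206 against 36.6 FPKM (2.46), the signal transducer gene Stat3 at 28.4 against 68.7 FPKM (-1.25) and the TGF-beta receptor gene Tgfbr2 at 39.0 against 159 FPKM (-2.00). For LPS against untreated, 0 of 4 were higher and 1 was lower, Tgfbr2 at 15.3 FPKM (-3.29), around a median of -0.65, where 8.51% of all genes were higher and 26.2% lower (median -0.40). For apoptotic cells against LPS, 4 of 6 were higher and 0 lower (median 1.12), led by Cebpa (2.94), Tgfbr2 (1.29) and Stat6 (1.17), where 15.7% of all genes were higher and 5.54% lower (median 0.32). Median-of-ratios scaling, which gave 419 higher and 443 lower genes in all, took the median of the list to 0.73. The interferon-gamma receptor gene Ifngr1 had 43.2 FPKM with apoptotic cells against 35.8 FPKM untreated (0.27), and was lower with LPS than untreated (-0.81). Its order is not set beside that of Fcgr1, whose levels with LPS and untreated were not distinguishable at this depth.

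Markers of other cells that carry Fc receptors differed between the libraries too. Of 10 macrophage markers 3 were analysed, Csf1r, Cd14 and Aif1, with a sum of 742 FPKM with apoptotic cells and 361 untreated, and all 3 were listed at 0 with LPS, so they do not check the label of that library. Neutrophils carry Fcgr4 in mice. The 9 neutrophil markers analysed summed to 325 FPKM with apoptotic cells, 496 with LPS and 118 untreated, and Elane and Retnlg were listed at 0 in every library. S100a8 and Lcn2, which activated macrophages can also express, made up most of these sums, at 116 and 187 FPKM with apoptotic cells, 222 and 272 with LPS, and 48.1 and 64.1 untreated. The other markers did not share an order. Mmp8, a collagenase of neutrophil granules, was highest with apoptotic cells at 16.0 FPKM, against 0.548 with LPS and 2.48 untreated. Camp was highest with LPS at 2.33 FPKM, against 0.752 with apoptotic cells and 0.713 untreated. Ngp stood at 2.27 FPKM with apoptotic cells and 0.611 untreated. S100a9 was nearly level, at 1.79 FPKM with apoptotic cells and 1.65 untreated (log2 ratio 0.07). Both Ngp and S100a9 were listed at 0 with LPS. The 9 NK cell markers summed to 2.14 FPKM, 0 and 1.44 FPKM, with the defining gene Ncr1 at 0 throughout.

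The 10 mast cell and eosinophil markers summed to 20.5 FPKM with apoptotic cells, 10.3 with LPS and 103 untreated. Mast cells express Fcer1g, but its listed 0 values can be failed estimates, so its order is not set beside that of these markers. Fcer1a, the gene for the IgE-binding chain of their receptor, stood at 0.347 FPKM with apoptotic cells and 0.356 with LPS. It was listed at 0 untreated. Ms4a2, the other signalling chain of that receptor, was listed at 0 in every library. The 11 B-cell markers summed to 211, 194 and 863 FPKM. The 10 T cell and thymocyte markers summed to 79.6, 3.44 and 16.1 FPKM, with Rag1 at 41.2 FPKM with apoptotic cells, 0.679 with LPS and 0 untreated. The 7 dendritic cell markers analysed of 8 summed to 24.2, 74.9 and 16.2 FPKM, but they did not share an order. Ccr7 at 54.4 FPKM and Itgax at 19.3 FPKM made up most of the LPS sum. Kmo, Flt3 and Xcr1 were highest untreated, at 5.45, 1.37 and 0.836 FPKM, against 0.716, 0.0933 and 0.230 FPKM with LPS. Batf3 was above 0 only untreated (0.591 FPKM) and Clec9a only with LPS (0.122 FPKM). The part of these cells in the levels of the Fc receptor genes was not tested.

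**Figure D4:**
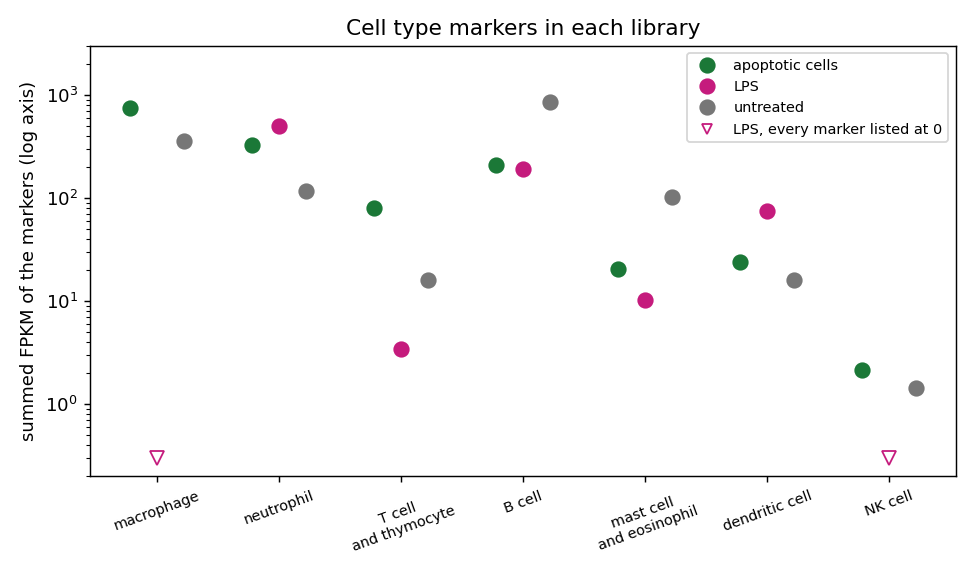
Summed FPKM (log axis) of the markers of each cell type analysed here, with apoptotic cells, with LPS and untreated, 1 library each. Summed neutrophil markers are highest with LPS (496 FPKM), mast cell and B-cell markers untreated (103 and 863 FPKM), and T cell and thymocyte markers with apoptotic cells (79.6 FPKM). Rag1 holds 41.2 FPKM of that last sum, and 8 of the 10 T cell and thymocyte markers are listed at 0 untreated. Open triangles mark lists whose every gene is listed at 0 with LPS.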

How the data were processed

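The deposited tables give 1 FPKM value per gene symbol for each of 3 libraries. The labels do not state the unit: it was taken as FPKM because Cufflinks 2.2.1 and Cuffdiff appear in the submitters' processing notes, beside TopHat2 2.1.0, cutadapt 1.14 and build mm10. Their options and annotation: not given in the sources used here. Groups come from the labels. The members, lists and most settings were chosen with earlier results of these data known.

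Ratios used a pseudocount of 1, genes above 0 in both libraries and a mean of at least 1 FPKM, and 2-fold was the threshold. Named genes are the members, up to 3 list members per direction and the 3 nearest genes by distance; Rac1, Trim21 and Ifngr1 were added after their values were seen. Of 91 pathway genes, 54 were analysed, matched by symbol or RefSeq synonym. Depth is not stated. Reads were estimated from the steps of genes with 1 transcript over 800 bases, at 0.305, 0.310 and 0.310 FPKM per read and kb after offsets of 275, 375 and 275 bases, with apoptotic cells, with LPS and untreated. The fit is loose, so the values were not turned back into counts. Intervals are 95% exact binomial (Clopper-Pearson) intervals on the rounded estimates. Coordinates are from GENCODE M21. Python 3.11.15 with numpy 2.4.6, pandas 2.3.3, scipy 1.17.1 and matplotlib 3.10.9 was used, and the steps were tested on simulated data.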

Additional observations from a re-analysis of the deposited data

How the results depend on the processing

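No paired analysis was possible because each group has 1 library, and leaving out a replicate was not possible for the same reason. The planned ratio of activating to inhibitory receptors was not run, since Fcgr2b and Fcgr3 were not analysed here. Every ratio of Fcgr1, Fcgr4 and Fcgrt stayed above 0 under the 8 alternatives that recompute it. Most of these could not have turned the sign. A pseudocount changes only the size of a ratio, and the settings on listed 0 values left these ratios unchanged. Only rescaling the libraries could have turned a sign. The ratios to untreated with apoptotic cells ranged over 1.98 to 4.11 for Fcgr4, 2.08 to 3.04 for Fcgrt and 0.70 to 4.84 for Fcgr1, which fell under 2-fold with a pseudocount of 5. The ratios to LPS ranged over 1.76 to 3.17, 1.09 to 1.55 and 0.62 to 3.12. With apoptotic cells against LPS, 1 of 3 members passed 4-fold. For LPS against untreated, the 1 member higher became 2 with a pseudocount of 0.1 or none (no pseudocount was added after the values were seen) and 0 with a pseudocount of 5 or at 4-fold. With a listed 0 taken as a value, Fcer1g counts as 1 member lower in both comparisons with untreated.

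Counts over all genes depended on the threshold, the pseudocount, the scaling and the use of listed 0 values. At 1.5-fold, 746 genes were higher and 1021 lower with apoptotic cells against untreated, 543 and 1461 with LPS against untreated, and 1537 and 496 with apoptotic cells against LPS. At 4-fold these counts were 96 and 143, 68 and 194, and 148 and 90. With a pseudocount of 5 they were 235 and 228, 164 and 321, and 278 and 155. With a listed 0 as a value they were 2682 and 1378, 2605 and 1674, and 1741 and 1423. Median-of-ratios scaling gave 647 and 450 for LPS against untreated and 419 and 443 for apoptotic cells against LPS, beside 291 and 896, and 722 and 255, as deposited. Over genes above 0 in all 3 libraries, 464 were higher with apoptotic cells than with LPS. With a 5 FPKM minimum for the mean, fewer genes were tested (2054, 2091 and 2606) and the shares changed too. Lower than untreated were 268 (13%) with apoptotic cells and 429 (20.5%) with LPS, against 16.4% and 26.2% with the 1 FPKM minimum. With apoptotic cells against LPS, 398 (15.3%) were higher and 163 (6.25%) lower, against 15.7% and 5.54%.

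Pathway lists together had 3 of 16 tested genes higher and 6 lower with apoptotic cells against untreated, beside 12.4% and 16.4% of all genes. With LPS against untreated, 1 of 13 was higher and 3 were lower, beside 8.51% and 26.2% of all genes. With apoptotic cells against LPS, 10 of 21 were higher and 0 lower, beside 15.7% and 5.54% of all genes. A listed 0 taken as a value raised the number tested to 41 in each comparison. Over genes above 0 in all 3 libraries it was 12, and with the 5 FPKM minimum 13, 11 and 18. The 3 higher against untreated became 5 with a pseudocount of 0.1 or none, with each library rescaled to the same sum and with median-of-ratios scaling. They became 6 at 1.5-fold, 1 at 4-fold and 18 with a listed 0 as a value, while the 6 lower became 3 at 4-fold. The LPS counts became 3 and 5 at 1.5-fold, 16 and 10 with a 0 as a value, 3 higher with median-of-ratios scaling, and 0 higher over genes above 0 in all 3 libraries or with the 5 FPKM minimum. The 10 and 0 became 6 higher with a pseudocount of 5 or over genes above 0 in all 3 libraries, 2 lower at 1.5-fold, 2 higher at 4-fold, 4 and 2 with median-of-ratios scaling, and 19 and 7 with a 0 as a value. With a listed 0 as a value 7 list medians turned sign. With apoptotic cells against untreated they turned to -3.35 for the gamma-chain partners and adaptors, 2.42 for other immunoglobulin-binding receptors, 1.36 for cytokine pathways and factors and 0.46 for activating signalling. With LPS against untreated they turned to -3.99 for the partners and adaptors and 2.48 for other immunoglobulin-binding receptors, and with apoptotic cells against LPS to -1.06 for the immunoglobulin and pentraxin ligands. With apoptotic cells against untreated, activating signalling also turned to 0.10 with median-of-ratios scaling, 0.46 over genes above 0 in all 3 libraries and 0.18 with the 5 FPKM minimum, and other immunoglobulin-binding receptors to 0.95 over genes above 0 in all 3 libraries. Other causes of these shifts were not tested. Depth limits Fcgr1 and Fcgr4 in the LPS and untreated libraries to a few reads each.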

Other observations

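Ligands other than IgG itself were few among the genes analysed. Ptx3, the gene for a soluble pentraxin that binds Fc gamma receptors, was listed at 0 with apoptotic cells and stood at 7.81 FPKM with LPS and 0.940 FPKM untreated, a log2 ratio of LPS to untreated of 2.18. The related pentraxin genes Crp and Apcs were listed at 0 in every library. Igj, the joining chain gene of secreted IgM and IgA, stood at 1.97 FPKM with apoptotic cells, 0.466 with LPS and 15.5 untreated, with log2 ratios to untreated of -2.47 and -3.49 and of 1.02 for apoptotic cells to LPS. Immunoglobulin heavy-chain and light-chain genes were not analysed here.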
